A study of Sus scrofa with 207 samples.

Results

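The transcripts of PPARGC1A, PDK4, UCP3 and UCP2, genes of the choice between glucose and fat as muscle fuel, were followed in muscle of 207 crossbred pigs. The members were the probe sets whose only gene symbol in the array annotation was one of these 4 genes, which gave 6 of the 23935 tested probe sets and 4 of the 6765 genes with a probe set of a single symbol. PPARGC1A and UCP2 had 1 probe set each, and PDK4 and UCP3 had a brighter and a dimmer one each. The brighter of the pair stands for its gene below unless the dimmer one is named. No filter on low values was applied, so all 6 entered every test. In the RefSeq gene table of Sscrofa11.1 PPARGC1A lies on chromosome 8 and PDK4, UCP2 and UCP3 on chromosome 9, where 1 other annotated gene separates UCP2 from UCP3.

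The animals were slaughter pigs of the commercial cross Pix(DLxDE) with a mean end weight of 110 kg, and each was profiled once on an Affymetrix Porcine Genome Array. They form a single group, so every comparison is a regression across animals on a trait or on another transcript. Drip loss of the longissimus, the fluid that seeps from stored meat as a share of its weight, averaged 5.37 ± 2.22% (SD, n = 207) and ran from 1.45 to 10.82%. Fat area over the same muscle averaged 15.0 ± 3.15 cm2 (SD) and ran from 8.1 to 26.7 cm2. It was missing for 8 animals, which the fits on fat area leave out. The labels used here give no age, sex, sire, slaughter day or array batch, and name the RNA source only as muscle.

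PPARGC1A encodes PGC-1alpha, a coactivator that raises transcription of genes for mitochondria and oxidative metabolism and whose own gene is induced in muscle by exercise, cold and cAMP signals. PDK4 is a kinase that switches off the pyruvate dehydrogenase complex, which spares glucose when fat is burned, as in fasting. UCP3 is a mitochondrial inner membrane carrier found mainly in skeletal muscle and brown fat whose transcript follows fatty acid supply, and UCP2 is a related carrier of many tissues, immune cells among them. In mice and humans PDK4 and UCP3 are each raised by fasting, and both are targets of the fatty acid sensing PPAR receptors.

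Values are log2 expression as deposited, with a floor at 4. Array medians lay between 5.96 and 6.18. A group of 24 arrays stood apart by a low median correlation with the rest (as low as 0.944, where 0.978 was typical), and is called the low-correlation arrays below. Drip loss was 4.2 ± 1.55% (SD) in these 24 animals and 5.53 ± 2.25% (SD) in the remaining ones. The numbers in the sample titles form a higher series of 33 animals and a lower one of all others, and were grouped into 10 blocks of 10 to 35 animals. The muscle label was borne out by the listed skeletal muscle markers: the mean of all 9 measured ones lay between 12.66 and 13.34 over the arrays. CKM, the muscle creatine kinase, averaged 14.11, at the bright end of the array, where its SD of 0.04 cannot be told apart from saturation. In such bulk tissue fewer cells of a type and less RNA per cell cannot be told apart.

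PPARGC1A, UCP3 and PDK4 were among the most variable transcripts of this muscle, and UCP2 was not. The SD of PPARGC1A over animals was 1.29 on the log2 scale, which ranked 20 of 6765 genes. UCP3 ranked 45 with an SD of 0.94 and PDK4 ranked 66 with an SD of 0.86, against rank 2890 and an SD of 0.26 for UCP2. The mean of UCP2 was 4.82, close to the floor at 4, so its narrow spread does not show that the transcript itself varies little. PPARGC1A had a lowest value of 5.96, a median of 8.02 and a highest of 10.97, a 32.2-fold range. Its values were spread broadly, with a 4.61-fold distance between the quartiles and 19 animals more than 2 log2 units above the median against 2 animals that far below it.

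PDK4 had a lowest value of 8.23, a median of 12.16 and a highest of 13.27, a 32.9-fold range of another shape. Most animals sat close together, with quartiles 1.72-fold apart, and a tail ran downward: 12 animals lay more than 2 log2 units below the median and 0 that far above it. The dimmer PDK4 probe set ran from 6.46 to 12.59 with 15 animals in that lower tail, and it correlated with the brighter one at r = 0.975 over the arrays. UCP3 had a lowest value of 5.75, a median of 8.55 and a highest of 10.72, a 31.3-fold range with 6 animals in the lower tail and 2 in the upper. Its dimmer probe set ran from 5.16 to 8.70 and correlated with the brighter one at r = 0.912. The difference between the 2 UCP3 probe sets correlated at 0.51 over the arrays with a measure of RNA integrity, the excess of 3' over 5' signal on the control probe sets, and that between the 2 PDK4 probe sets at 0.29. UCP2 ran from 4.00 to 5.56 around a median of 4.82, a range of at least 2.95-fold, since 1 array reached the floor.

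**Figure D1:**
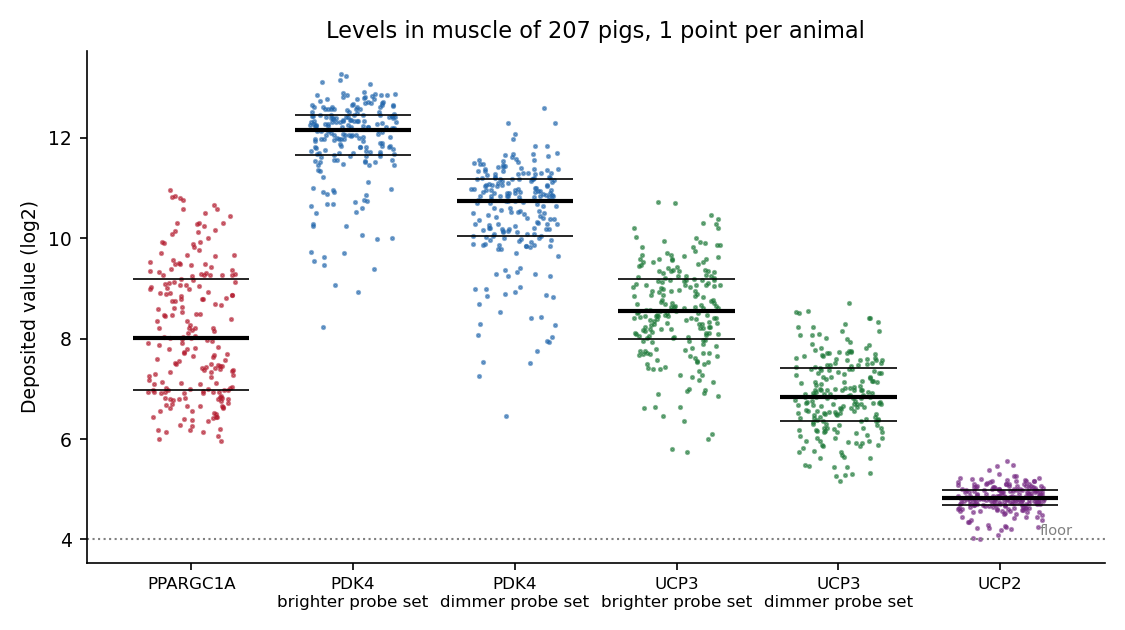
Deposited log2 values (y axis) of the 6 probe sets in 207 pigs, 1 point per animal spread sideways at random; thick lines are medians, thin lines quartiles and the dotted line the floor at 4. PPARGC1A spreads broadly from 5.96 to 10.97, PDK4 has a tail of low animals below a dense band around its median of 12.16, and UCP2 stays between 4.00 and 5.56.

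The blocks of title numbers took up 9.27% of the variance of PPARGC1A, 9.31% of that of UCP3, 3.39% of that of PDK4 and 2.43% of that of UCP2, against a median of 7.84% over all tested probe sets. The blocks differed for PPARGC1A and UCP3 (limma F test, adjusted p = 0.047 and 0.0462 over all probe sets) and did not pass for PDK4 or UCP2 (adjusted p = 0.7 and 0.87). Block means of PPARGC1A ran from 7.79 to 9.30 and those of UCP3 from 8.04 to 9.03. The 24 low-correlation arrays held a PPARGC1A level of 8.54 ± 1.44 (SD), against 8.09 ± 1.26 on all others.

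The most variable members did not move as 1 set. PDK4 was higher in animals with more PPARGC1A, by 0.33 ± 0.055 log2 units per SD of PPARGC1A (SE, n = 207, limma adjusted p = 4.6e-07 over all probe sets). UCP3 was higher in animals with more PDK4, by 0.27 ± 0.062 per SD (adjusted p = 7.4e-04). UCP3 and PPARGC1A, on the other hand, gave a slope of 0.03 ± 0.065 (adjusted p = 0.821), with a 95% interval of -0.10 to 0.15. UCP2 did not pass with any of the others, and its slopes on them lay between -0.01 and 0.01, each ± 0.018 (SE).

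In correlation terms PPARGC1A and PDK4 shared 14.6% of their variance. Pearson's r was 0.38 and Spearman's rho 0.38 (two-sided permutation p = 1.0e-05 for both, the smallest that 100000 permutations can give, adjusted p = 2.6e-04 over 26 relations computed). r was 0.38 also without the 2 animals farthest from the PPARGC1A median and 0.38 without the low-correlation arrays, positive in 9 of 10 blocks (-0.01 to 0.57), 0.42 in the lower number series and 0.16 in the higher one. For PDK4 and UCP3, r was 0.29 (permutation p = 6.0e-05, adjusted p = 7.8e-04) and rho 0.31 (permutation p = 2.0e-05, adjusted p = 2.6e-04). That r was 0.27 without the 2 animals farthest from the PDK4 median, positive in 9 of 10 blocks (-0.55 to 0.43), 0.26 in the lower series and 0.44 in the higher, 0.33 without the low-correlation arrays and 0.01 among those 24. For PPARGC1A and UCP3, r was 0.03 (permutation p = 0.69, adjusted p = 0.78) and rho 0.01 (permutation p = 0.862, adjusted p = 0.906). With 5 principal components of all probe sets as covariates the PPARGC1A and PDK4 correlation was 0.11 (adjusted p = 0.392) and that of PPARGC1A and UCP3 was 0.26 (adjusted p = 0.0039), so both calls changed. The correlations of UCP2 with the other 3 lay between -0.03 and 0.03.

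**Figure D2:**
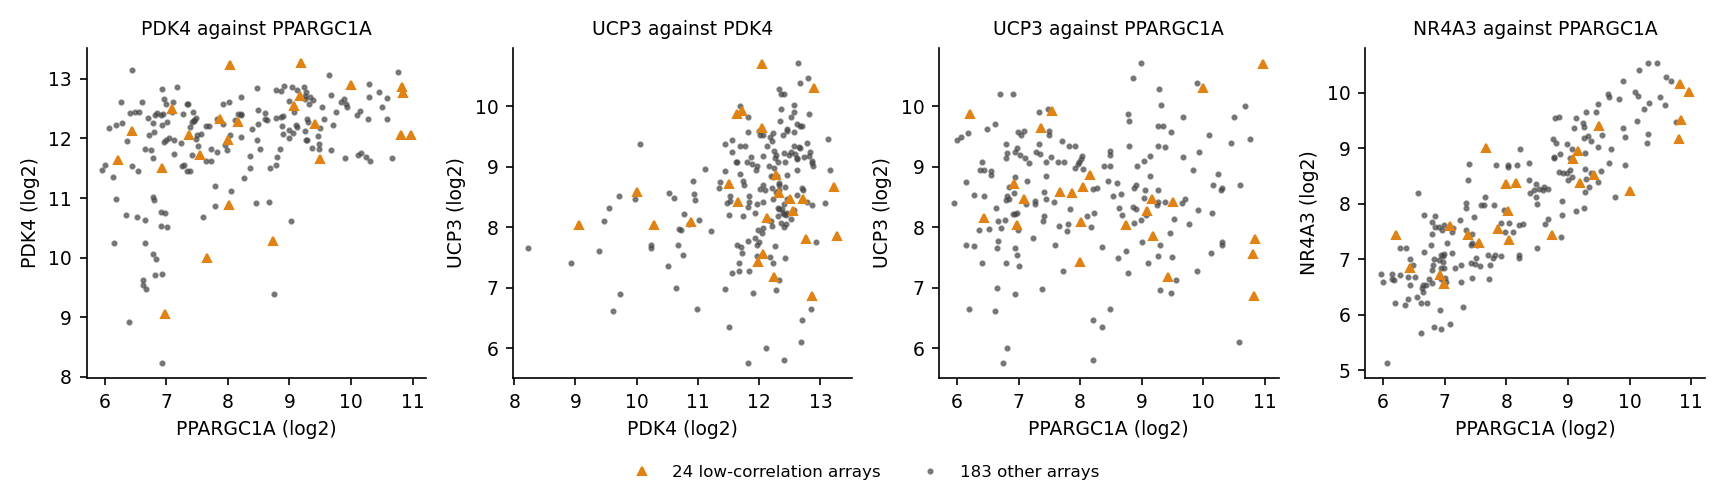
Log2 levels of 4 pairs of transcripts in 207 pigs, 1 symbol per animal, with orange triangles for the 24 low-correlation arrays and grey points for the others. PDK4 rises with PPARGC1A (r = 0.38) and UCP3 with PDK4 (r = 0.29), UCP3 against PPARGC1A shows no slope (r = 0.03), and NR4A3 follows PPARGC1A closely (r = 0.87).

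The transcripts most like PPARGC1A followed it closely. By the rule of highest r among genes with a mean above 6.10, the median over all probe sets, the list opened with NR4A3, an orphan nuclear receptor induced by exercise and beta-adrenergic signals, at r = 0.87 (rho 0.86). PRKAG2, a regulatory subunit of the energy sensor AMPK, came next at 0.86 (rho 0.84). RETREG1, a receptor for autophagy of the endoplasmic reticulum, had 0.69, the stress transcription factor DDIT3 0.65, and LONRF3 and TMEM251 each 0.64. NR4A3 itself ran from 5.13 over a median of 7.87 to 10.54, and PRKAG2 from 5.38 over 6.76 to 9.04. r of NR4A3 with PPARGC1A was 0.87 without the low-correlation arrays, 0.86 in the higher number series alone and 0.76 with 5 principal components as covariates. At the other end SWSAP1, with a role in homologous recombination, had -0.53, the tubulin cofactor TBCC -0.50, B4GAT1 -0.50, ZNF3 -0.49, FCGRT -0.47 and CEP85 -0.47. With the principal components the r of SWSAP1, TBCC, B4GAT1 and CEP85 turned to between 0.02 and 0.06.

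Among the lists drawn up for these genes, the cAMP-responsive and immediate early genes followed PPARGC1A most often. Of 16 measured, 14 passed with a positive slope and 0 with a negative one, beside a background of 10.6% positive and 20.5% negative over all genes, and the median r was 0.30 against -0.05 over all genes. Next to NR4A3 stood CREM, a repressor and activator of cAMP response elements, and ATF3, a stress-induced transcription factor, each at r = 0.49. KLF4 had 0.48 and NFIL3 0.44, both transcription factors. Leaving out the low-correlation arrays gave 13 of 16, whereas 5 principal components left 1 of 16. Of the FOXO and glucocorticoid response genes 5 of 17 passed positive and 1 negative. They included FBXO32, the muscle ubiquitin ligase atrogin-1, at 0.57 and NR3C1, the glucocorticoid receptor, at 0.37, while TSC22D3, a glucocorticoid-induced gene, had -0.30. PPRC1, a coactivator related to PGC-1alpha, had 0.45, LPIN1, a phosphatidate phosphatase that also acts as a coactivator, 0.37 and MEF2A, a muscle transcription factor, 0.26. These were the 3 positive calls among 19 coactivators and partner factors, with 4 negative. TFAM, the mitochondrial transcription factor, had 0.09, PPARD -0.13 and PPARA 0.03, and none of the 3 passed.

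The nuclear genes of mitochondrial energy metabolism did not follow PPARGC1A upward in these animals. Of 33 measured complex I subunits 0 passed positive and 13 negative, with a median r of -0.15. Of 12 further respiratory chain genes, of complexes II, III and IV, 0 passed positive and 2 negative (median r -0.11), and of 14 ATP synthase genes 0 passed positive and 5 negative (median r -0.14). These counts stand beside a background of 10.6% positive and 20.5% negative over all genes. The negative calls of complexes II, III and IV lay below that share. Genes called negative include NDUFB10 of complex I at -0.29, ATP5D of ATP synthase at -0.22 and COX6C of cytochrome oxidase at -0.18. Of 54 genes of the mitochondrial ribosome, import and dynamics 23 passed negative and 3 positive (median r -0.16), with the ribosomal protein MRPS15 and the matrix protease LONP1 both at -0.39 and the import receptor TOMM22 at -0.35, while the matrix chaperone HSPA9 had 0.32. In the TCA cycle 0 of 17 passed positive and 3 negative, SUCLG1 at -0.23 among them, which is below the background share. Of 17 measured genes on a list drawn up for PGC-1alpha targets in muscle, 1 passed positive, the growth arrest gene GADD45A at 0.46, and 2 negative. Both counts lie below the background shares. Whether each listed gene is such a target was not tested.

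These counts depended on which arrays and covariates entered. Without the low-correlation arrays 2 of 33 complex I genes passed negative, with a median r of -0.06 against -0.05 over all genes in that fit. With blocks in the fit 2 passed and the median was -0.09. With 5 principal components of expression as covariates all 33 had a positive r, 12 passed positive and 0 negative, and the median was 0.23 against 0.01 over all genes. In that fit 4 of 14 ATP synthase genes and 6 of the 12 further respiratory chain genes passed positive too. The PPARGC1A level itself correlated with the median correlation of an array with the others at r = -0.18 (permutation p = 0.00912, adjusted p = 0.0474 over the 26 relations; rho -0.15, permutation p = 0.0358, adjusted p = 0.12). That r was -0.12 without the low-correlation arrays, negative in 8 of 10 blocks (-0.48 to 0.28) and -0.16 without the 2 arrays farthest from the median.

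**Figure D3:**
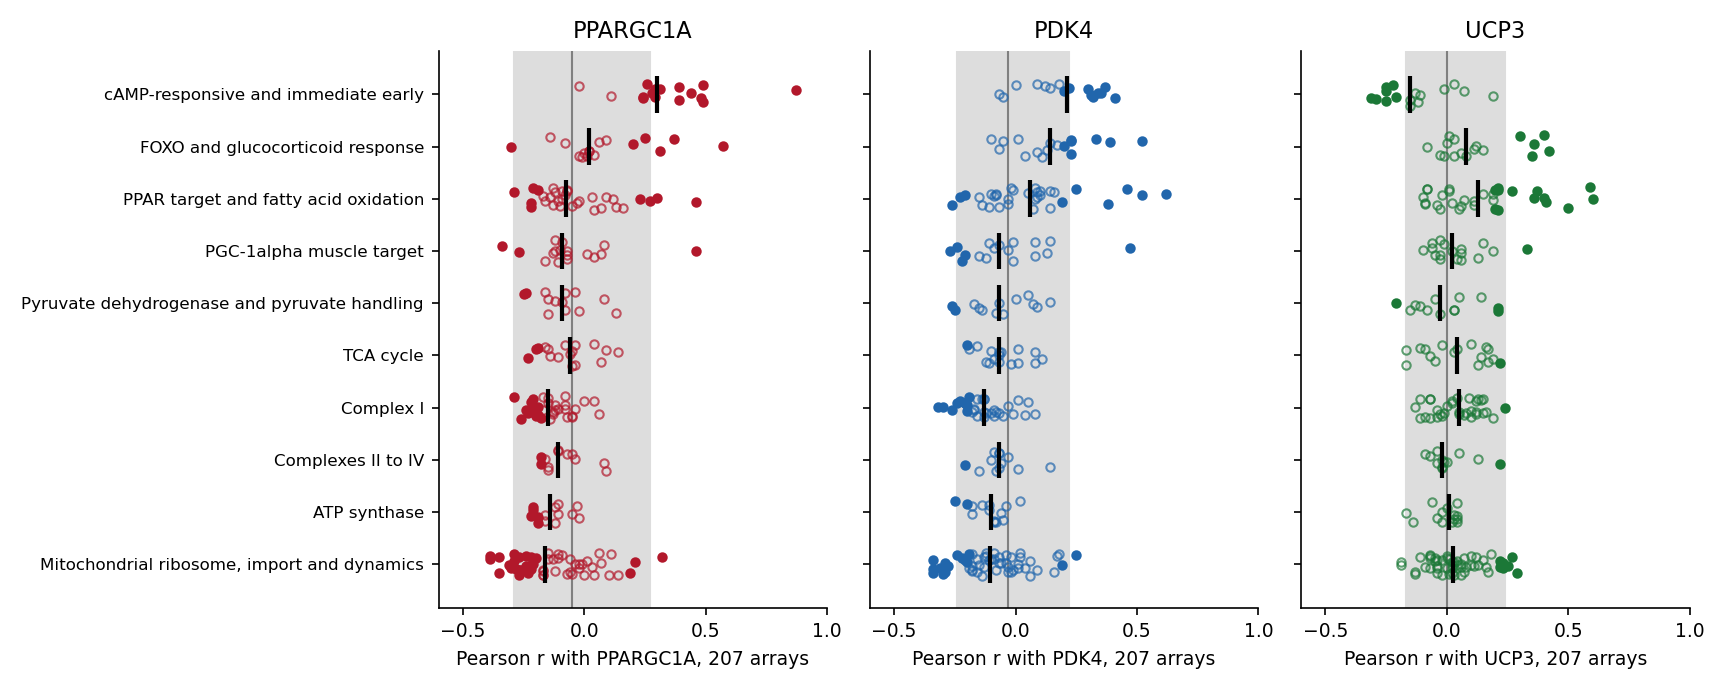
Pearson r over 207 arrays (x axis) of each measured gene of 10 lists with PPARGC1A, PDK4 and UCP3, with filled circles for genes that passed in limma (adjusted p under 0.05) and open ones for the rest. Black bars are list medians, the grey line is the median over all genes and the grey band their 5th to 95th percentile. The median of the early response genes lies right of the grey line for PPARGC1A and left of it for UCP3, and fatty acid oxidation genes reach 0.60 with UCP3.

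PDK4 went with a mixed company of fatty acid, FOXO and early response genes. PLIN2, the lipid droplet coat protein perilipin 2, was most like it at r = 0.62 (rho 0.60). The transcription factor KLF11 had 0.54, TXNIP, an inhibitor of thioredoxin and glucose uptake, 0.52, CPT1A, the entry enzyme of fatty acids into mitochondria, 0.52, and ZFAND5 and HBP1 each 0.50. The lowest were TBCC at -0.53, RNF113A at -0.50, TMEM219 at -0.46, FAM136A and SLC25A1, the mitochondrial citrate carrier, each at -0.45, and SERTAD3 at -0.44. Of the 17 FOXO and glucocorticoid response genes 7 passed positive and 0 negative, beside a background of 6.93% positive and 10.5% negative. FBXO32 had 0.39 and CITED2, a coregulator induced by FOXO, 0.33, while FOXO1 itself had 0.04 and KLF15, a glucocorticoid-induced factor, 0.13, neither of which passed. Of 16 cAMP and early genes 9 passed positive and 0 negative, led by CEBPD at 0.41 and JUN at 0.37, both transcription factors. With 5 principal components 2 of these 16 passed positive and 2 negative (median r -0.03), and 3 of the 17 FOXO and glucocorticoid genes passed positive and 0 negative.

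Of 32 PPAR target and fatty acid oxidation genes 6 passed positive with PDK4 and 3 negative, beside 6.93% and 10.5% over all genes. The negative calls of this list thus lay near the background. The positive ones included ANGPTL4, a secreted inhibitor of lipoprotein lipase and a PPAR target, at 0.46 and ACSL1, which activates long-chain fatty acids, at 0.38. The negative ones were the beta-oxidation enzymes HADH at -0.26 and ECHS1 at -0.23 and the thioesterase ACOT8 at -0.21. The pyruvate dehydrogenase complex, the target of the PDK4 kinase, showed little: of 13 genes of pyruvate handling 0 passed positive and 2 negative, the mitochondrial pyruvate carrier MPC1 at -0.26 and pyruvate carboxylase PC at -0.25, and the catalytic subunit PDHA1 had 0.09 and did not pass. Of 33 complex I genes 10 passed negative and 0 positive (median r -0.13, against -0.03 over all genes), NDUFB10 at -0.32 and NDUFB7 at -0.30 among them. Without the low-correlation arrays 4 did, and with 5 principal components 0 passed in either direction.

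UCP3 went with the carnitine shuttle and other genes of fatty acid use. CPT1A was most like it at r = 0.60 (rho 0.64), followed by SLC25A20, the carnitine-acylcarnitine carrier of the inner membrane, at 0.59 (rho 0.61). KLF11 had 0.56, MRLN, the peptide myoregulin that inhibits the calcium pump SERCA, 0.54, ACSL1 0.50 and the ubiquitin ligase adaptor ASB8 0.48. CPT1A correlated with UCP3 at 0.76 in the higher number series alone and at 0.62 with 5 principal components. At the low end stood MEX3C at -0.43, FAM46C at -0.39, the cochaperone DNAJA1 at -0.38, the clock factor DBP at -0.37, CSRP2 at -0.36 and the heat shock gene HSP70.2 at -0.36.

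Of the 32 PPAR target and fatty acid oxidation genes 13 passed positive with UCP3 and 0 negative, beside a background of 8.03% positive and 3.31% negative, with a median r of 0.13 against 0.00 over all genes. ANGPTL4 had 0.41, the muscle form CPT1B 0.40, carnitine acetyltransferase CRAT 0.37 and the triglyceride lipase PNPLA2 0.36. Without the low-correlation arrays 10 of 32 passed positive, with blocks 12 and with 5 principal components 10. Of the FOXO and glucocorticoid response genes 5 of 17 passed positive and 0 negative: FOXO1 at 0.42, TSC22D3 at 0.40, FBXO32 at 0.36, TXNIP at 0.35 and FKBP5, a glucocorticoid-induced chaperone, at 0.30. SLC2A4, the insulin-responsive glucose transporter, had 0.33. Respiratory genes were sparse, with 1 of 33 complex I genes and 0 of 14 ATP synthase genes passing positive and 0 of either negative. Of the 16 cAMP and early genes 0 passed positive and 7 negative, NFIL3 at -0.31 and ATF3 at -0.29 among them, whereas without the low-correlation arrays 1 passed positive and 5 negative, and with 5 principal components 2 and 2 (median r -0.06).

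A fit that held the levels of all 4 members tested whether the slope of a gene on PPARGC1A differed from that on UCP3. This test was added after the correlations had been seen. The difference is that of the signed slopes, so a gene that fell with PPARGC1A and was flat on UCP3 counts as higher on UCP3. Of the 16 cAMP and early genes 13 had the higher slope on PPARGC1A and 0 on UCP3, beside a background of 9.57% and 19.9%. For NR4A3 the difference was 1.00 ± 0.058 log2 units per SD (SE, adjusted p = 1.9e-38), and for EGR1, a rapidly induced transcription factor, 0.68 ± 0.092 (adjusted p = 4.3e-10). Of the 32 PPAR target and fatty acid oxidation genes 2 had the higher slope on PPARGC1A and 14 on UCP3. In the fit on PPARGC1A alone 5 of these 32 had passed negative and 4 positive. For CPT1A the difference was -0.25 ± 0.031 (adjusted p = 6.1e-12) and for SLC25A20 -0.21 ± 0.020 (adjusted p = 2.7e-18). On these same arrays NR4A3 was the gene most like PPARGC1A, and CPT1A and SLC25A20 those most like UCP3. Their differences therefore restate those correlations and are no separate support. The same holds for the list counts and for EGR1 and FOXO1, since this test followed the correlations on the same arrays. FOXO1 also leaned to UCP3, by -0.17 ± 0.037 (adjusted p = 8.5e-05), whereas KLF15 did not pass (0.02 ± 0.042, adjusted p = 0.775).

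UCP2, low and narrow in range, correlated weakly with other genes, and those most like it include leukocyte genes. PTPRCAP, a partner of the leukocyte phosphatase CD45, was most like it at r = 0.38 (rho 0.31). LCP1, the leukocyte plastin, had 0.36 (rho 0.29), the leukocyte coronin CORO1A 0.33 (rho 0.23) and LAT, an adaptor of the T cell receptor, 0.32 (rho 0.22). Over all genes 51 passed positive, a background of 0.754%, and 0 passed negative, a background of 0%, in limma, with 270 negative at an unadjusted p under 0.05. Of 13 lymphocyte markers 2 passed positive, the T cell kinase LCK at 0.33 and the B cell receptor chain CD79B at 0.32 (median r 0.13 against 0.02), and of 14 macrophage and myeloid markers 1, the lysosomal membrane protein LAPTM5 at 0.26. The mean of the 13 lymphocyte markers ran from 5.28 over a median of 5.57 to 6.19 on the arrays, and that of the 14 macrophage and myeloid markers from 6.40 over 7.06 to 9.55, and none of either list was at the floor on all arrays. UCP2 also correlated with the array median (r = 0.19, permutation p = 0.00605, adjusted p = 0.0393; rho 0.21, permutation p = 0.0029, adjusted p = 0.0188), at 0.25 in the lower number series and -0.15 in the higher. Of the respiratory and fatty acid lists 0 genes passed with UCP2, and the lowest correlations of brighter genes, MFAP5 and SORD at -0.24 (adjusted p = 0.0565 and 0.0688), did not pass either.

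**Figure D4:**
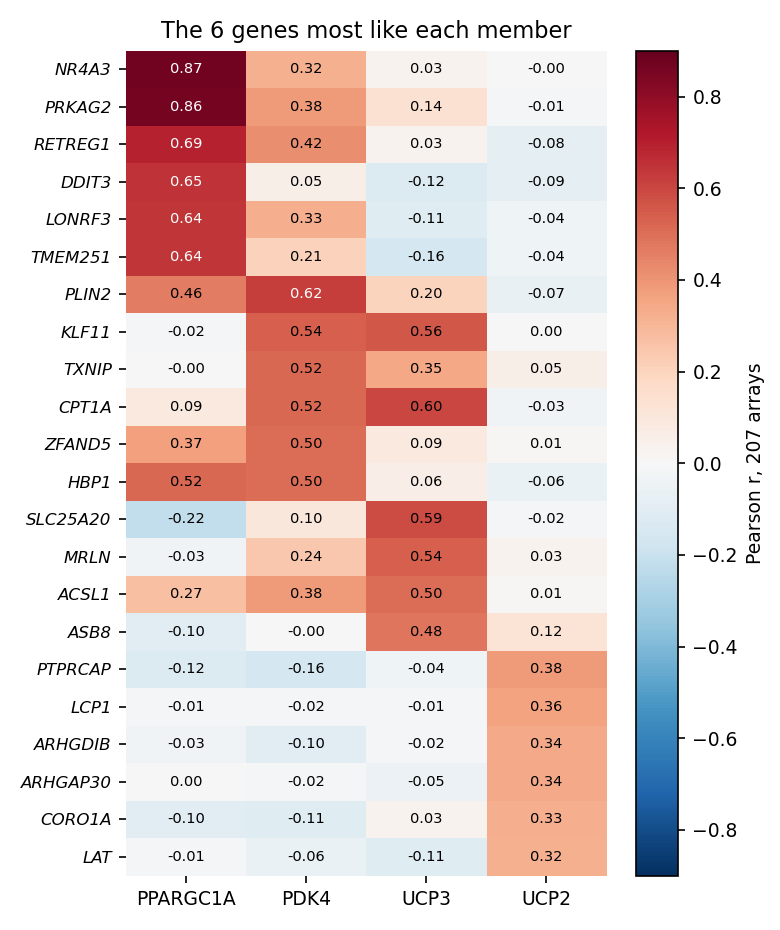
Pearson r over 207 arrays of the 6 genes most like each member (rows) with all 4 members (columns), on a colour scale from blue for negative to red for positive, with the value printed in each cell. CPT1A and KLF11 stand among the 6 of both PDK4 and UCP3, NR4A3 and PRKAG2 exceed 0.85 with PPARGC1A only, and the genes of UCP2 lie between -0.16 and 0.03 for the other members.

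Of the 4 members, PPARGC1A had the steepest slope on drip loss, downward. It missed the threshold over all probe sets narrowly and passed in the smaller family of 26 relations. That family holds only relations of these 4 members, which were chosen with earlier results of these data known. Its adjustment does not cover that choice. With the animals ranked by drip loss and split into 4 groups of 51 or 52, from low to high, the median PPARGC1A level was 8.64, 8.32, 7.57 and 7.61. The groups overlapped broadly, with values from 6.62 to 10.97 at the lowest and from 6.19 to 10.50 at the highest drip loss. The slope was -0.27 ± 0.087 log2 units per SD of drip loss (SE, n = 207), or -16.9% per SD, with a limma p of 0.00239 and an adjusted p of 0.051 over all probe sets, of which 1.94% passed higher and 2.67% lower. Drip loss accounted for 4.29% of its variance. Adjusted over the 26 relations, r was -0.21 (permutation p = 0.00253, adjusted p = 0.0219) and rho -0.21 (permutation p = 0.00246, adjusted p = 0.0188), and r was -0.24 without the 2 animals farthest from the drip loss median. Adjusted over the 6765 genes with 1 probe set each, the p was 0.0388, a version added after the first value had been seen. The slope was negative in 9 of 10 blocks, with r between -0.59 and 0.09. It was -0.24 in the lower number series (adjusted p = 0.183) and -0.48 in the higher (adjusted p = 0.629), a difference that did not pass either (adjusted p = 0.996). Without the low-correlation arrays it was -0.24 (adjusted p = 0.198) and with blocks in the fit -0.22 (adjusted p = 0.251).

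The 2 transcripts most like PPARGC1A passed. NR4A3 fell with drip loss by 0.30 ± 0.078 per SD (SE, n = 207, adjusted p = 0.0123) and PRKAG2 by 0.16 ± 0.051 (adjusted p = 0.0423), and so did PPRC1 by 0.12 ± 0.027 (adjusted p = 0.00684). Without the low-correlation arrays none of the 3 passed (slopes of -0.29, -0.14 and -0.091, adjusted p = 0.0648, 0.161 and 0.0759), nor with blocks as a covariate (-0.27, -0.10 and -0.091, adjusted p = 0.0665, 0.366 and 0.0934). Of the 16 cAMP and early genes 9 fell and 0 rose, beside a background over genes of 2.11% lower and 3.96% higher. With the mean of these genes as a covariate the PPARGC1A slope was 0.01 ± 0.079 (adjusted p = 0.991), and with 5 principal components it was 0.02 ± 0.068 (adjusted p = 0.981). That mean holds NR4A3, so the covariate and the member share much of their variation. Of 33 complex I genes 14 rose with drip loss and 0 fell. Without the low-correlation arrays 0.831% of all probe sets passed for drip loss, against 4.61% with them.

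PDK4, UCP3 and UCP2 did not pass for drip loss in limma, nor with r or rho adjusted over the 26 relations (adjusted permutation p between 0.12 and 0.969). Their slopes were -0.07 ± 0.059 (adjusted p = 0.522), 0.05 ± 0.065 (adjusted p = 0.741) and 0.01 ± 0.018 (adjusted p = 0.899) per SD, with 95% intervals of -0.19 to 0.04, -0.08 to 0.18 and -0.03 to 0.04. The PDK4 medians over the 4 groups from low to high drip loss were 12.10, 12.29, 12.13 and 12.00. The dimmer probe sets gave -0.08 ± 0.069 for PDK4 and 0.05 ± 0.052 for UCP3.

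**Figure D5:**
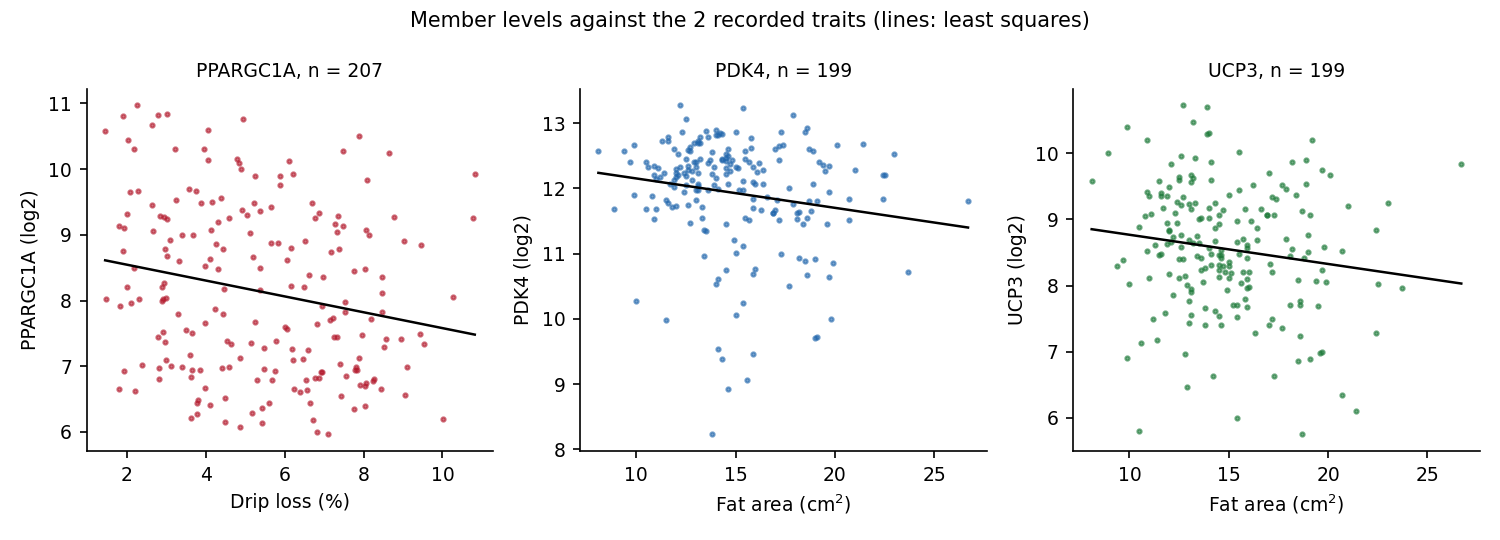
Log2 levels (y axes) of PPARGC1A against drip loss and of PDK4 and UCP3 against fat area, 1 point per animal with least-squares lines. All 3 lines run downward through wide scatter, and none of the slopes passed the threshold over all probe sets.

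None of the 4 members passed for fat area in limma over all probe sets either. The slopes of PDK4 and UCP3 were the steepest, both downward. The PDK4 medians over 4 groups of 49 or 50 animals from small to large fat area were 12.22, 12.32, 12.07 and 11.82, and its slope was -0.14 ± 0.059 per SD (SE, limma p = 0.017, adjusted p = 0.578). The permutation tests were adjusted over the 26 relations, all of which involve these 4 members, so the choice of members is again not covered. In them rho passed at -0.20 (permutation p = 0.00549, adjusted p = 0.0285) and r did not at -0.17 (permutation p = 0.0191, adjusted p = 0.0829). That r was negative in 8 of 10 blocks (-0.46 to 0.14) and -0.15 without the 2 animals farthest from the fat area median. The UCP3 medians were 8.84, 8.68, 8.36 and 8.43, and its slope was -0.14 ± 0.066 (p = 0.0355, adjusted p = 0.664), with an r of -0.15 (permutation p = 0.0391, adjusted p = 0.145) and a rho of -0.16 (permutation p = 0.0291, adjusted p = 0.12). The dimmer probe sets gave -0.17 ± 0.069 for PDK4 and -0.13 ± 0.052 for UCP3, with adjusted p of 0.571 and 0.556. Over all probe sets 0.046% passed higher and 0.0752% lower, so few transcripts of any kind passed for this trait. CPT1A, which stood near both PDK4 and UCP3, fell by 0.13 ± 0.030 per SD of fat area (adjusted p = 0.0381), and it was the 1 of 32 PPAR target and fatty acid oxidation genes to pass, beside 0.118% lower and 0.0296% higher over genes. The CPT1A slope on fat area did not pass in 6 alternatives: with sex-linked transcripts (-0.11, adjusted p = 0.937) or blocks (-0.12, 0.071) as a covariate, in the lower (-0.12, 0.0966) or the higher (-0.19, 0.999) number series alone, without the arrays lacking spike-in signal (-0.12, 0.0843), and without the 2 animals farthest from the median (-0.12, 0.0576). PPARGC1A had a slope of -0.10 ± 0.090 (adjusted p = 0.877) and UCP2 of 0.01 ± 0.019 (adjusted p = 0.959). The difference between the slopes on drip loss and on fat area passed for none of the 4, with values of -0.16 ± 0.12 for PPARGC1A (adjusted p = 0.587), 0.06 ± 0.079 for PDK4 (adjusted p = 0.818), 0.17 ± 0.089 for UCP3 (adjusted p = 0.426) and -0.00 ± 0.025 for UCP2 (adjusted p = 0.965).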

How the data were processed

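Arrays of 207 muscle samples were analysed. Per the submitters' processing notes, the authors processed them with GCOS 1.1.1 and PLIER; the deposited values are log2 expression per probe set with a floor at 4, and any scaling between arrays is not given in the sources used here. They were used as they stand. Of 24123 rows 188 controls were left out. The array annotation gave 10069 of the tested probe sets 1 symbol, 198 of them several and 13668 none, and 9961 of the single-symbol ones matched the RefSeq table by gene number. The brightest single-symbol probe set stood for a gene.

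In R 4.3.3, limma 3.58.1 (lmFit, then eBayes) fitted each probe set to a trait or to a member's level, so that a slope is the log2 change for 1 SD of the predictor. P values were adjusted by Benjamini-Hochberg over all probe sets (threshold 0.05, two-sided). Correlations between members, with traits and with array properties, 26 in all, had 100000 permutations (NumPy 2.4.6) and were adjusted together. Where nothing in the labels says more, p-values measure the spread between animals. Genes were named by rule: all members, the 6 genes with the highest and the 6 with the lowest r with each (mean above 6.10), the 3 passing genes of each of 21 lists with the largest absolute r, listed genes that passed for a trait, and a short set of regulators; ACOT8, ATF3, KLF4 and a few further list genes were added after their values were seen. ESRRA, PPARGC1B, PDK2, UCP1 and NR4A1 had no single-symbol probe set. The members and lists were chosen with earlier results of these data known. Alternatives covered normalization, a filter, number series, blocks, principal components, extreme animals, arrays that stand apart, RNA integrity and markers of other cells. The comparison of PPARGC1A and UCP3 slopes, the fit with 1 probe set per gene and the fit with the other members as covariates were chosen after seeing the data. On simulated data with 50 changed probe sets per size among 23935, the drip loss fit recovered 88% at 0.1 log2 per SD and 98% at 0.2. The changed probe sets were drawn at random, each with simulated normal noise of its own SD. The SDs of PPARGC1A, UCP3 and PDK4 lay at the 99.8, 99.6 and 99.4 percentile of all probe sets, so these recovery shares do not hold for them. Sequences were not used here.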

Additional observations from a re-analysis of the deposited data

How the results depend on the processing

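No paired analysis was possible because the animals form 1 group with no shared replicate numbers. The slope of PPARGC1A on drip loss stayed negative in all but 2 of 22 alternatives (-0.48 to 0.02), and passed among probe sets with a mean above the median (-0.27, adjusted p = 0.0317), without the 2 animals farthest from the median (-0.31, 0.0196), with macrophage markers (-0.27, 0.0462) or fat area (-0.30, 0.0301) as a covariate and with 1 probe set per gene (-0.27, 0.0388). No other member passed for either trait over all probe sets in any alternative of the limma fit.

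The share of tested probe sets that passed for drip loss, 4.61%, was 0.823% and 0% in the lower and the higher number series alone, 0.623% with blocks, 0.0543% with principal components, 0.831% without the low-correlation arrays and 0.355% with blocks too. It was 2.43% with 3' minus 5' control signal, 2.95% with slow fibre markers and 0.00836% with early response genes as a covariate. For fat area 0.121% passed, against 0% in the higher series, 0.38% with principal components and 0% with sex-linked transcripts as a covariate. The share that follows PPARGC1A was 22.9%, against 1.2% in the higher series, 1.57% with principal components, 14.3% without the low-correlation arrays, 12.5% with blocks too, and 14% with the other 3 members as covariates. For PDK4 it was 12.7%, against 0.00836% in the higher series, 4.32% with principal components, 6.8% with blocks and without the low-correlation arrays, and 6.54% with the other members. For UCP3 it was 7.67%, against 4% and 0.117% in the lower and the higher series and 4.79% with blocks and without the low-correlation arrays. For UCP2 it was 0.543%, against 0.292% among brighter probe sets, 0% in the higher series, 0.326% without the low-correlation arrays and 0.238% with blocks too. Each series holds fewer animals, and other causes were not tested.

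The correlation of PPARGC1A and PDK4 no longer passed in the higher series (0.16, adjusted p = 0.689) or with principal components (0.11, 0.392), nor did that of PDK4 and UCP3 in the higher series (0.44, 0.229). That of PPARGC1A and UCP3 passed with principal components (0.26) and with early response genes (0.19, 0.0367) as covariates. With principal components the sign of r with PPARGC1A turned for SWSAP1 (0.06), TBCC (0.02), B4GAT1 (0.06), CEP85 (0.03), KLF4 (-0.08), NFIL3 (-0.13), MEF2A (-0.02), NDUFB10 (0.18), ATP5D (0.15), COX6C (0.15), SUCLG1 (0.20), MRPS15 (0.05), LONP1 (0.03), TOMM22 (0.03), MPC1 (0.23) and PC (0.05), none of which passed then. In the higher series r of PC turned with PPARGC1A (0.15) and PDK4 (0.06), r of NR4A3 with PDK4 was -0.03 with the other members as covariates, and the drip loss slope of NFIL3 was 0.0054 with early response genes as a covariate. UCP2 lies close to the floor, which limits its range, and the number of arrays limits every slope.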

Other observations

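Other mitochondrial carriers of the SLC25 family, to which the uncoupling proteins belong, were called with the members in mixed directions. Of 17 measured, 3 passed positive and 3 negative with PPARGC1A, beside 10.6% and 20.5% over all genes. With PDK4 0 and 3 passed, beside 6.93% and 10.5%, and with UCP3 1 and 2, beside 8.03% and 3.31%. SLC25A20, also of this family, was counted with the PPAR target and fatty acid oxidation genes and is not among the 17. It had r = 0.59 with UCP3. SLC25A5, an ADP/ATP carrier, followed PPARGC1A at r = 0.59, and SLC25A33, a pyrimidine nucleotide carrier, at 0.39 (0.29 with UCP3). Of 10 adipocyte markers 1 passed positive and 1 negative with UCP3, 0 and 3 with PDK4, and 0 and 2 with PPARGC1A. The background shares are those given above for the carriers. With UCP3 these were LIPE, the hormone-sensitive lipase, at 0.38 and SCD, the stearoyl-CoA desaturase, at -0.28. SCD had -0.34 with PDK4. The mean of the 10 measured adipocyte markers ran from 6.91 over a median of 7.55 to 9.14 on the arrays, and their part in these correlations was not tested.

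Of 12 endothelial markers 5 passed positive with PPARGC1A and 0 negative, beside 10.6% and 20.5% over all genes, ENG, a TGF-beta coreceptor, at 0.34 and the receptor TEK at 0.28 among them, with a median r of 0.10 against -0.05 over all genes. The mean of those 12 ran from 6.68 over 7.34 to 7.71 on the arrays. Of the 9 slow and the 9 fast fibre markers 1 and 0 passed with PPARGC1A, 1 and 0 with PDK4, and 0 and 0 with UCP3 in limma. Both calls were negative, beside negative shares of 20.5% with PPARGC1A and 10.5% with PDK4 over all genes. The fast markers averaged 12.98 to 14.14, at the bright end of the array. SDs were 0.05 for MYH2 and 0.10 for the slow marker MYH7. Such narrow spread cannot be told apart from saturation, so these counts do not show whether the members follow fibre type. With PPARGC1A the 23 kinase and second messenger inputs had 3 positive and 6 negative calls, near the shares of 10.6% and 20.5%. STK11, the kinase upstream of AMPK, and PRKAG3, the muscle AMPK subunit, each at -0.25, were among the negative ones.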
